A study of Mus musculus with 6 samples.

Results

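The 10 genes described here encode the transcription factor NF-kB and its feedback inhibitors: the subunits Nfkb1, Nfkb2, Rel, Rela and Relb, the IkB-family proteins Nfkbia, Nfkbie, Nfkbiz and Bcl3, and the ubiquitin-editing enzyme Tnfaip3. They were chosen as genes of one pathway and picked out by gene symbol, with no threshold on their values. Earlier results of these data were known when they were chosen. All 10 were found among the 25755 genes of the table. RNA of whole optic nerves was sequenced in bulk from mice with the genotype Nf1flox/flox; hGFAP-Cre, 3 after a sham operation (incision without crush; mice 1, 2 and 3) and 3 after bilateral optic nerve crush (ON-CR; mice 4, 5 and 6), with surgery at 6 weeks and analysis at 12 weeks of age. Both groups carried the same alleles: floxed Nf1, the gene of the RAS regulator neurofibromin, is inactivated where Cre recombinase is driven by the human GFAP promoter, that is, in neuroglial progenitors and thus in their descendants. The comparison of ON-CR with sham nerves asks whether transcripts of the NF-kB system differed 6 weeks after the injury.

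NF-kB is a dimer of Rel-family proteins that is held in the cytoplasm of resting cells by IkB proteins. Receptors for interleukin-1, tumor necrosis factor and microbial products activate the IKK complex, which marks IkB for destruction, and the freed dimer enters the nucleus and binds kappaB sites. Several genes of the system are themselves NF-kB targets, so that IkB-alpha (Nfkbia) and A20 (Tnfaip3) are made anew and shut the signal off, and the pathway is best known in microglia and other immune cells for control of cytokine and chemokine genes. Much of this control acts on protein location and stability, which RNA levels do not measure.

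The libraries held 17414091 to 23621006 estimated reads, and those of the ON-CR mice were the 3 smallest. The deposited value of a gene is its estimated reads divided by a library factor, so that 1 read was worth between 0.885 and 1.06. Over all genes, 540 of 25755 (2.10%) had an adjusted p at or under 0.05 in limma's test on log2(value + 1), with 250 higher (0.971%) and 290 lower (1.13%) after ON-CR. Oligodendrocyte transcripts fell, with 7 of 8 markers called lower and summed marker values of 1289878 to 1844616 in sham and 628935 to 745099 in ON-CR nerves, and the astrocyte markers, 1 of 8 called (S100b, lower), had summed values of 220707 to 272482 and 285097 to 316434. That sum turns on Gfap, the filament protein of astrocytes: without it the range was 121521 to 149926 in sham and 113477 to 128632 in ON-CR nerves, and the list had 4 fold changes above 0 and 4 below, with a median of -0.03. Of 8 fibroblast and meningeal markers 1 was called (Slc47a1, lower), and none of 8 endothelial and 5 red blood cell markers was. Each of these marker calls was lost in at least 1 alternative fit, where the highest adjusted p was from 0.142 (Mobp) to 0.284 (Ermn) for the 7 oligodendrocyte genes, 0.209 for S100b and 0.249 for Slc47a1. Sex-linked transcripts differed between the groups as well. Of 5 such genes, 1 was higher and 3 were lower after ON-CR without overlap. Eif2s3y overlapped, at 363 in ON-CR mouse 4 and 358 in sham mouse 2. Xist stood at 16.7, 2.14 and 30.9 in the sham nerves and at 2708, 6357 and 6131 in nerves 4, 5 and 6. Y-linked Ddx3y stood at 1645, 1291 and 1544 in the sham nerves and at 976, 4.19 and 0 in nerves 4, 5 and 6. ON-CR mouse 4 thus held both Xist and Ddx3y transcripts. Whether its library holds RNA of more than 1 animal was not tested, it is counted as 1 replicate, and without it none of the 10 NF-kB genes was called (Bcl3 had a log2 fold change of 1.48 and an adjusted p of 0.248, Nfkbia -0.70 and 0.215, by limma). In its methods for RNA extraction and qPCR, the study used more than 1 mouse per sample. The sample labels here name 1 mouse per library. An effect of surgery and of sex on a gene cannot be told apart. In whole nerves, fewer cells of a type and less RNA per cell cannot be told apart either.

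None of the 10 genes passed the test at an adjusted p of 0.05, against 2.10% of all genes, and the smallest adjusted p by limma was 0.128, for Bcl3. At an unadjusted p under 0.05 there were 2, Bcl3 (higher) and Nfkbia (lower), against 15.6% of all genes. Bcl3 was the 1 gene of the 10 whose values did not overlap between the groups, with all 3 ON-CR mice above all 3 sham mice, a pattern found for 10.5% of all genes in this direction. Fold changes were above 0 for 6 genes and below 0 for 4, with a median log2 fold change of 0.20, beside a median of 0.03 over all genes, of which 52.8% were above 0. The limma p-values rest on the spread between these mice, with the variance of each gene drawn toward a trend over all genes. An exact permutation test of 3 against 3 for 1 gene cannot give a p under 0.1.

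**Figure D1:**
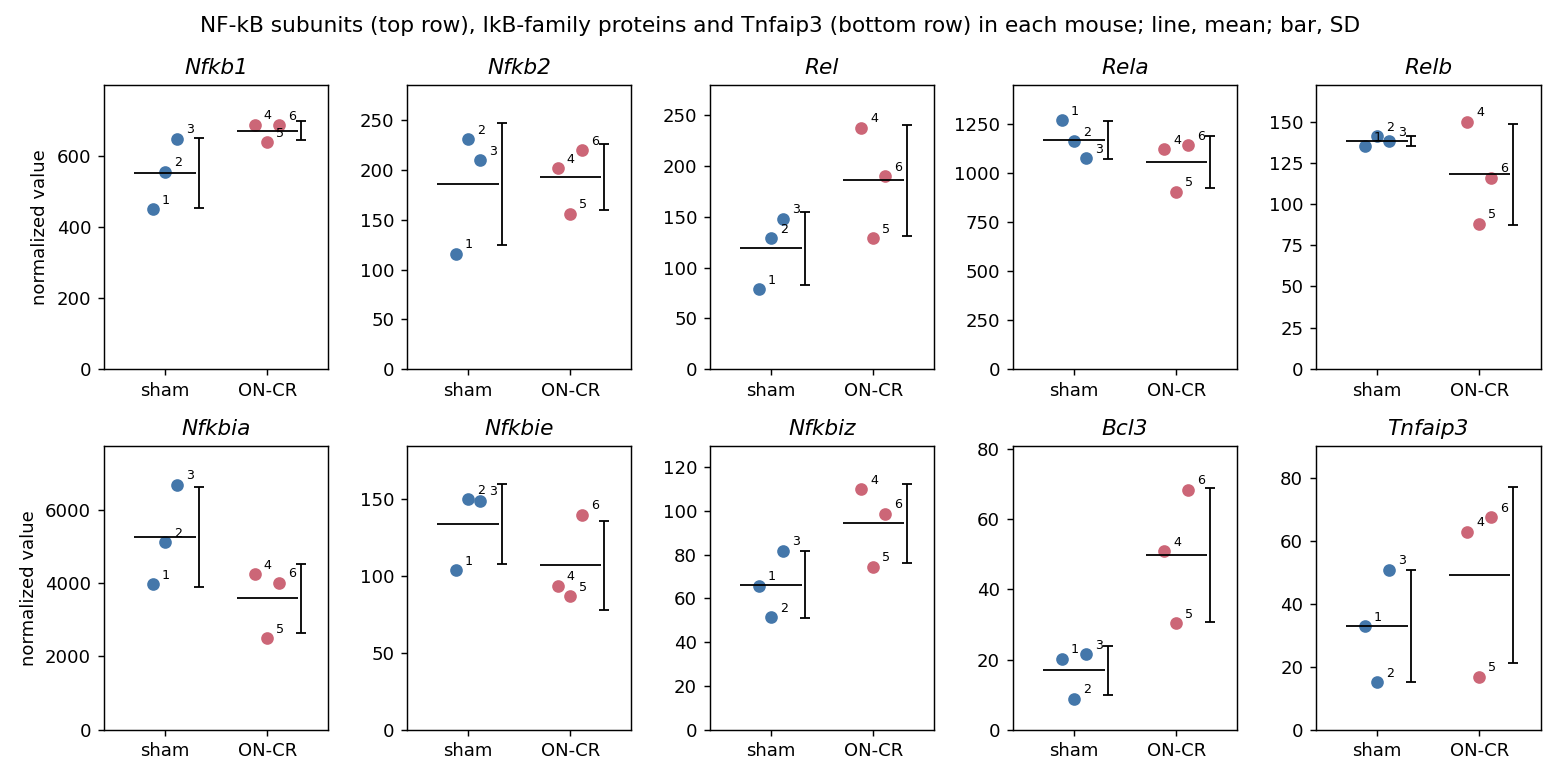
Normalized value (estimated reads divided by a library factor, axes from 0) of each gene in each mouse, with sham mice 1 to 3 in blue and ON-CR mice 4 to 6 in red; lines are group means, bars are SDs (n = 3) and the small digits are mouse numbers. The groups overlap for every gene but Bcl3, where sham mice sit between 8.85 and 21.6 and ON-CR mice between 30.4 and 68.5.

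The promoters of these genes were read for kappaB sites, because feedback through NF-kB is what several of them are known for. RefSeq promoter windows of 300 bases (250 before and 50 after a transcript start, GRCm38.p6) were at hand for 7 of the 10 genes, Nfkb2, Rel, Rela, Nfkbia, Nfkbie, Tnfaip3 and Bcl3. A match to the kappaB consensus (G, G, G, a purine, any base, A or T, a pair of pyrimidines, C, C, searched on both strands) lay in a window of 6 of the 7, all but Rela. Over the whole table, 4.51% of 32851 windows and 5.14% of 27025 genes held a match. The stricter form GGGANTTNCC, also searched on both strands and overlapping the consensus, was present in windows of Nfkb2, Rel, Nfkbia and Bcl3 and in 1.2% of all windows. Such a match is a stretch of letters, and binding was not measured.

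Among the subunits, the matches were in Nfkb2 and Rel. They are shown as stretches of 30 bases in the direction of the gene, 5′ to 3′, with the matched bases in capitals, including those matched on the opposite strand.
Nfkb2 site 1 (chr19:46304688-46304717, + strand): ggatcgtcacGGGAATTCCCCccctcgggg
Nfkb2 site 2 (chr19:46304716-46304745, + strand): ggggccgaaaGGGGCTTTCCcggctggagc
Nfkb2 site 3 (chr19:46305449-46305478, + strand): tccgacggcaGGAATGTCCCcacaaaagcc
Nfkb2 site 4 (chr19:46305695-46305724, + strand): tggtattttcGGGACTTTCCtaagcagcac
Rel site (chr11:23771042-23771071, - strand): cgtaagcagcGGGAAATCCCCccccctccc
Site 1 of Nfkb2 and the site of Rel each hold 3 overlapping matches. Nfkb2 sites 1 and 2 begin 39 and 11 bases before one transcript start, site 3 begins 236 bases before another, and site 4 begins 11 bases after that second start. The Rel site begins 92 bases before its start.

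Rela and Nfkb1, which encode p65 and the p105 precursor of p50, form the most common NF-kB dimer. Rela (ENSMUSG00000024927.8, chr19:5637483-5648130, + strand, GRCm38) was at 1268, 1160 and 1073 in the nerves of sham mice 1, 2 and 3 and at 1120, 902 and 1140 in those of ON-CR mice 4, 5 and 6. The groups overlapped, and only ON-CR mouse 5 lay below every sham mouse. The means were 1167 ± 97.5 and 1054 ± 132 (SD, n = 3 each), a log2 difference of -0.15 (SE 0.13, 95% interval -0.45 to 0.14, limma adjusted p 0.635). With ON-CR mouse 5 left out it was -0.04, and with mouse 6 or sham mouse 3 left out it was -0.21.

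Nfkb1 (ENSMUSG00000028163.17, chr3:135584655-135691547, - strand) was at 450, 555 and 648 in the sham nerves and at 687, 639 and 686 in the ON-CR nerves. The ON-CR values were close together, with mice 4 and 6 above all sham mice and mouse 5 just below sham mouse 3. The means were 551 ± 99.1 and 671 ± 27.2 (SD, n = 3 each), with a log2 fold change of 0.30 (SE 0.15, 95% interval -0.04 to 0.63, limma adjusted p 0.376). Leaving out each mouse in turn gave 0.16 to 0.42.

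Rel encodes c-Rel, a subunit best known from lymphocytes and myeloid cells. Rel (ENSMUSG00000020275.9, chr11:23736847-23770970, - strand) was at 78.5, 129 and 148 in the sham nerves and at 238, 129 and 190 in the ON-CR nerves. ON-CR mice 4 and 6 were above all sham mice, whereas ON-CR mouse 5 lay within the sham range. Its means of 119 ± 36.1 and 186 ± 54.8 (SD, n = 3 each) gave the highest fold change among the subunits in this fit, 0.65 on the log2 scale (SE 0.29, 95% interval -0.0046 to 1.30, limma adjusted p 0.324). Without ON-CR mouse 5 the log2 fold change was 0.89 with an adjusted p of 0.126, and without sham mouse 1 it was 0.38 with an adjusted p of 0.635.

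Nfkb2 and Relb encode the p100 precursor of p52 and RelB, the pair of the non-canonical pathway. Nfkb2 (ENSMUSG00000025225.15, chr19:46304320-46312385, + strand) was at 116, 231 and 210 in the sham nerves and at 202, 156 and 220 in the ON-CR nerves. All ON-CR values fell within the sham range, whose lowest value was that of sham mouse 1. The log2 fold change was 0.10 (SE 0.27, 95% interval -0.49 to 0.69, limma adjusted p 0.899), and its sign turned without sham mouse 1, at -0.21. Exons of Nfkb2 share 299 bases with Psd and 531 with a non-coding gene on the opposite strand, and its estimated reads were not whole numbers in any library, so its value is uncertain. Psd itself had 68.7, 55.6 and 42.2 in sham mice and 48.2, 175 and 48.5 in ON-CR mice.

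Relb (ENSMUSG00000002983.17, chr7:19606217-19629438, - strand) was at 135, 141 and 138 in the sham nerves and at 150, 88.1 and 116 in the ON-CR nerves. The sham values were nearly the same, and ON-CR mice lay on both sides of them. The means were 138 ± 3.01 and 118 ± 30.8 (SD, n = 3 each), and the log2 fold change of -0.26 (SE 0.23, 95% interval -0.76 to 0.25) had a limma adjusted p of 0.643. Leaving out ON-CR mouse 5 gave -0.06, and leaving out mouse 4 gave -0.44.

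Of the inhibitors, Nfkbia, Nfkbie, Tnfaip3 and Bcl3 held kappaB matches in their windows, shown in the same way.
Nfkbia site (chr12:55492657-55492686, - strand): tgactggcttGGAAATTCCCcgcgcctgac
Nfkbie site (chr17:45555584-45555613, + strand): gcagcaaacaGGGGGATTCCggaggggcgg
Tnfaip3 site 1 (chr10:19015516-19015545, - strand): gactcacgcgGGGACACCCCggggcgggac
Tnfaip3 site 2 (chr10:19015403-19015432, - strand): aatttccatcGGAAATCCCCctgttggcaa
Bcl3 site (chr7:19822734-19822763, - strand): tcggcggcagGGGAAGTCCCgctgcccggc
The Nfkbia match begins 29 bases before the transcript start and the Nfkbie match 106 bases before it. Those of Tnfaip3 begin 125 and 12 bases before the start, and that of Bcl3 begins 3 bases after it. The annotations place some starts differently, and the Nfkb2, Tnfaip3 and Bcl3 sites lie inside the GENCODE bounds given with each gene, whereas those of Rel, Nfkbia and Nfkbie lie upstream of them. The 250 bases before the Nfkbia start are given whole, because this gene had the highest level of the 10 and its inhibitor is the best known feedback product of NF-kB.
Nfkbia promoter (chr12:55492648-55492897, - strand): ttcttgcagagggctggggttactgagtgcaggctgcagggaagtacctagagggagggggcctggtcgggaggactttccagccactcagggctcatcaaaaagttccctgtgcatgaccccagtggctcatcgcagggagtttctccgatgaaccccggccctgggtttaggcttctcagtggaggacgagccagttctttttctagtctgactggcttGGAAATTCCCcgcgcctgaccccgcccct

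Nfkbia (ENSMUSG00000021025.8, chr12:55489410-55492647, - strand) was at 3961, 5120 and 6677 in the sham nerves and at 4243, 2493 and 4009 in the ON-CR nerves. ON-CR mice 4 and 6 lay just above sham mouse 1, and ON-CR mouse 5 was the lowest of the 6 mice. The means were 5253 ± 1363 and 3582 ± 950 (SD, n = 3 each). On the log2 scale the difference was -0.56 (SE 0.23, 95% interval -1.06 to -0.06), with an unadjusted p of 0.0329 and an adjusted p of 0.268 by limma. It was -0.32 without ON-CR mouse 5 and -0.75 without sham mouse 1, with adjusted p from 0.215 to 0.518 over the fits that left out a mouse.

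Nfkbie encodes IkB-epsilon, which like IkB-alpha holds dimers of p65 or c-Rel in the cytoplasm. Nfkbie (ENSMUSG00000023947.8, chr17:45555703-45563169, + strand) was at 104, 150 and 149 in the sham nerves and at 93.7, 87 and 140 in the ON-CR nerves. ON-CR mice 4 and 5 were below all sham mice, and ON-CR mouse 6 was within their range. The log2 fold change was -0.34 (SE 0.25, 95% interval -0.90 to 0.22, limma adjusted p 0.572). It was -0.21 when ON-CR mouse 5 was dropped and -0.55 when mouse 6 was.

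Bcl3 and Nfkbiz encode the atypical IkB proteins Bcl-3 and IkB-zeta, which act in the nucleus on dimers of p50 or p52 and can raise as well as lower transcription. Bcl3 (ENSMUSG00000053175.17, chr7:19808462-19822770, - strand) was at 20.2, 8.85 and 21.6 in the sham nerves and at 50.9, 30.4 and 68.5 in the ON-CR nerves. These rest on 19, 10 and 23 estimated reads in sham and on 51, 29 and 66 in ON-CR mice. The lowest ON-CR mouse was above the highest sham mouse, and ON-CR mouse 6 was the highest of all. The means were 16.9 ± 6.98 and 49.9 ± 19.1 (SD, n = 3 each). The fold change was 2.89 (95% interval 1.43 to 5.82), or 1.53 on the log2(value + 1) scale (SE 0.45), with an unadjusted p of 0.0071 and an adjusted p of 0.128 by limma. The adjusted p ran from 0.0615 without ON-CR mouse 5 to 0.411 without ON-CR mouse 6, and over these fits the log2 fold change was from 1.15 to 1.84. Exons of Bcl3 share 161 bases with the antisense gene Gm16175. How strand was used in counting is not given in the sources used here, so its value is uncertain to that extent.

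Nfkbiz (ENSMUSG00000035356.17, chr16:55811375-55838899, - strand) was at 65.8, 51.4 and 81.7 in the sham nerves and at 110, 74.4 and 98.6 in the ON-CR nerves. ON-CR mice 4 and 6 were above all sham mice, and ON-CR mouse 5 was below sham mouse 3. The means were 66.3 ± 15.2 and 94.3 ± 18 (SD, n = 3 each), with a log2 fold change of 0.51 (SE 0.27, 95% interval -0.09 to 1.10, limma adjusted p 0.397). It was 0.34 without sham mouse 2 and 0.67 without sham mouse 3 or ON-CR mouse 5.

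Tnfaip3 encodes A20, which removes activating ubiquitin chains upstream of IKK. Tnfaip3 (ENSMUSG00000019850.11, chr10:19000910-19015657, - strand) was at 32.9, 15.1 and 50.7 in the sham nerves and at 62.8, 16.8 and 67.5 in the ON-CR nerves. ON-CR mice 4 and 6 were above all sham mice, while ON-CR mouse 5 and sham mouse 2 were low alike, at 16 and 17 estimated reads. The log2 fold change was 0.49 with the widest interval of the 10 (SE 0.58, 95% interval -0.81 to 1.79, limma adjusted p 0.749). It was 1.12 without ON-CR mouse 5, with an adjusted p of 0.252, and 0.03 without sham mouse 2.

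**Figure D2:**
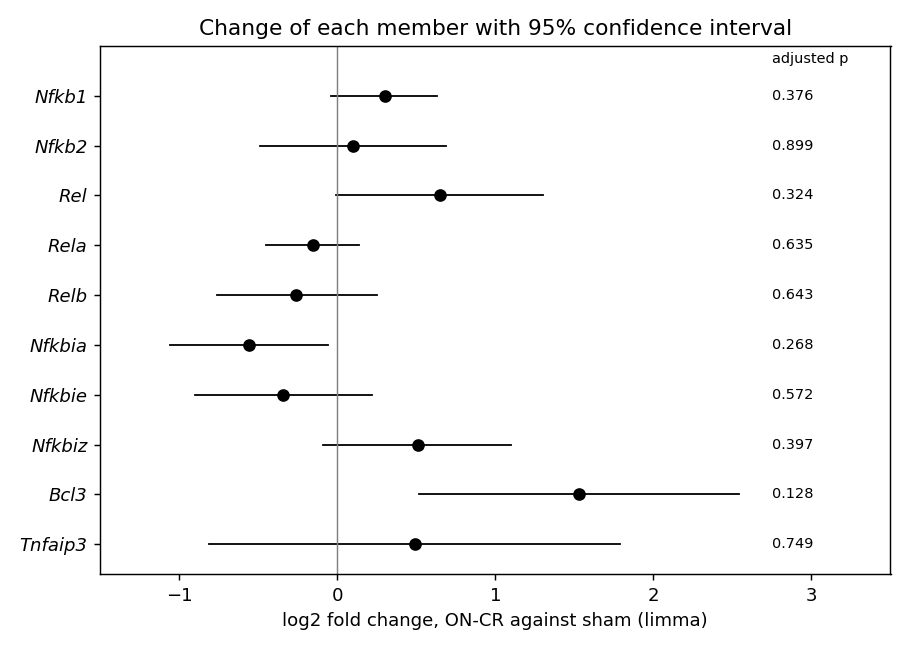
Log2 fold change of ON-CR against sham for each gene (points) with its 95% confidence interval from limma (lines), and the adjusted p over all genes at the right. The intervals of Bcl3 (0.52 to 2.54) and Nfkbia (-1.06 to -0.06) leave out 0, and no adjusted p is below 0.128.

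Levels were set side by side between genes per kilobase of exon. The length was that of all annotated exons of a gene together, from 1610 bases in Nfkbia to 12061 in Nfkb1. Which exons were used in these nerves was not measured, so the order is approximate. The place of Nfkb2 also shares the uncertainty of its value. Nfkbia was the highest in every mouse, with 1548 to 4147 normalized units per kilobase and a median of 2563. Rela came next with a median of 368 and a range of 293 to 413, which overlapped neither that of Nfkbia above it nor that of Nfkb1 below it. These were followed by Nfkb1 (median 53.4), Nfkb2 (44.9), Nfkbie (40.1), Relb (35.1), Rel (18.6), Nfkbiz (15.6), Bcl3 (10.5) and Tnfaip3 (5.79). From Nfkb1 downwards each range overlapped that of the next gene. These medians are over all 6 mice, and group means changed the order in places. Bcl3 was below Nfkbiz in sham nerves (6.82 against 13.2) and above it in ON-CR nerves (20.2 against 18.8). Nfkbie was above Nfkb2 in sham nerves (44.1 against 40.5) and below it in ON-CR nerves (35.1 against 42.1). The order of Nfkb2 over Nfkbie and of Nfkbie over Relb was seen in 4 of the 6 mice each, and that of Nfkb1 over Nfkb2, Rel over Nfkbiz and Nfkbiz over Bcl3 in 5 of 6. The order of Relb over Rel and of Bcl3 over Tnfaip3 held in 6 of 6.

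The genes shared an order among the mice of the ON-CR group. All 10 had their lowest ON-CR value in mouse 5, whereas over all genes mouse 5 was the lowest of the ON-CR mice for 36.1%. The count was 10 of 10 also after scaling to the library total and to the upper quartile. The library of mouse 5 was the smallest, with 17414091 estimated reads. Its limma sample weight was the lowest, 0.613, against 1.29 in mouse 4 and 0.987 in mouse 6. Whether the quality of this library bears on the order was not tested. The highest ON-CR value was that of mouse 4 for 5 genes and of mouse 6 for the other 5. Among sham mice, mouse 1 was the lowest for 6 of the 10 and mouse 3 the highest for 6. Relative to the sham mean, the median of the 10 genes on the log2 scale was 0.26 in ON-CR mouse 4, -0.28 in mouse 5 and 0.32 in mouse 6, so the ON-CR mice lay on both sides of the sham mean.

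**Figure D3:**
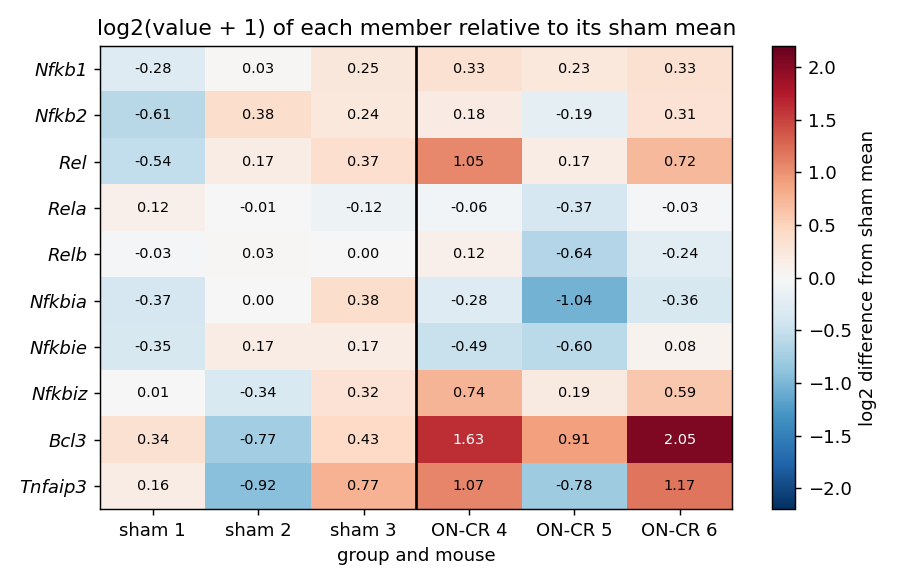
Difference of log2(value + 1) from the mean of the sham mice for each gene (rows) in each mouse (columns, sham 1 to 3 left and ON-CR 4 to 6 right of the line), in red where higher and blue where lower, with the value printed in each cell. ON-CR mouse 5 is below ON-CR mice 4 and 6 in all 10 rows, and Bcl3 is the row with the strongest red, at 2.05 in ON-CR mouse 6.

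The 4 immune cell marker lists also had their lowest ON-CR median in mouse 5, as did the oligodendrocyte list (-0.63, -1.18 and -0.84 in mice 4, 5 and 6) and the fibroblast and meningeal list (-0.13, -0.51 and -0.32). The astrocyte and endothelial lists were lowest in mouse 6 and the red blood cell list in mouse 4. Of 10 microglia and macrophage markers 8 had fold changes above 0 and 2 passed the test, C1qa (log2 fold change 1.20, limma adjusted p 0.00924) and Aif1 (1.22, 0.026). Both calls were lost in some alternatives, with an adjusted p of up to 0.0854 for C1qa and 0.175 for Aif1 when a mouse was left out, and of up to 0.184 and 0.23 over all alternatives. The 2 with fold changes below 0 were the microglial genes Tmem119, at 1523, 1745 and 1675 in the sham and 1469, 1169 and 1487 in the ON-CR nerves without overlap (-0.27, adjusted p 0.351), and P2ry12, at 1947, 1857 and 1243 against 1389, 1143 and 1362 (-0.35, adjusted p 0.364). The summed values of the 10 markers were 16159 to 20408 in sham mice and 20288 to 31218 in ON-CR mice. ON-CR mouse 5 was the lowest of its group in this list too: the list's median log2 difference from the sham mean was 0.79, 0.23 and 0.84 in mice 4, 5 and 6. Csf1r, the marker with the highest mean, had 4877, 3974 and 3615 in sham mice and 5849, 3950 and 6020 in ON-CR mice. All 8 T cell markers had fold changes above 0 and none passed the test, and the list medians were 0.63, -0.60 and 2.25 in mice 4, 5 and 6. The 6 B and plasma cell markers, none of which passed the test, had medians of -0.05, -1.02 and 3.40 there, and their summed value reached 14347 in mouse 6, against 94.7 to 503 in sham mice. Of 5 neutrophil markers measured, 3 had fold changes above 0 and none passed the test. The part of these cells in the values of the NF-kB genes was not tested.

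Upstream of the subunits, the list of the IKK complex and its adaptors held no gene that passed the test, against 2.10% of all genes. Of 35 genes measured, 17 had fold changes above 0 and 18 below, and the median log2 fold change was -0.02. An unadjusted limma p under 0.05 was seen for 7 of them, against 15.6% of all genes. Ikbke, an IKK-related kinase of interferon and NF-kB signaling, had 47.8, 60.2 and 25.4 in sham mice and 107, 47.2 and 110 in ON-CR mice (log2 fold change 0.96, limma adjusted p 0.301). ON-CR mouse 5 was again within the sham range. Malt1, the paracaspase of the complex with Bcl10, had 64.7, 95.6 and 101 in sham mice and 121, 130 and 175 in ON-CR mice, without overlap (0.70, adjusted p 0.203). At the other end were the ubiquitin ligase gene Birc2, with 804, 704 and 681 in sham and 621, 555 and 555 in ON-CR mice (-0.34, adjusted p 0.231), and Rbck1, of the linear ubiquitin ligase, with 991, 1072 and 1049 in sham and 909, 806 and 764 in ON-CR mice (-0.33, adjusted p 0.207).

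The other IkB proteins and negative regulators held no called gene either, against 2.10% of all genes. Of 20 genes, 9 had fold changes above 0 and 11 below, with a median log2 fold change of -0.02. An unadjusted limma p under 0.05 was seen for 6 of these, against 15.6% of all genes. Nlrc3, a NOD-like receptor that dampens NF-kB signaling, had 30.8, 31.9 and 40.4 in sham mice and 68.8, 76.5 and 117 in ON-CR mice. These did not overlap, and the log2 fold change was 1.30 (SE 0.30, limma adjusted p 0.0584). Otulin, a deubiquitinase of linear chains, was at a log2 fold change of 0.68 (adjusted p 0.311). The lowest were Otud7b (Cezanne), a deubiquitinase, with 3848, 5065 and 4621 in sham and 3747, 2594 and 3017 in ON-CR mice (-0.54, adjusted p 0.116), and Irak3, the kinase-like inhibitor IRAK-M (-0.47, adjusted p 0.461).

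Among known NF-kB target genes, Ccl4, Ccl3, Lcn2 and C3 were those that rose with the smallest p after ON-CR. Of 39 measured, 31 had fold changes above 0 and 8 below, and the median log2 fold change was 0.57. The test was passed by 11 (28.2%), 10 of them higher. The list was drawn up with earlier results of these data known, so this share is a description only. It was not compared by a test with the all-gene background of 2.10%. The chemokine gene Ccl4 had 12.7, 11.5 and 19.7 in sham mice and 396, 324 and 575 in ON-CR mice (log2 fold change 4.78, limma adjusted p 0.000136), and Ccl3 had 17, 5.31 and 11.3 against 295, 195 and 270 (4.49, adjusted p 0.000712). Every ON-CR mouse, mouse 5 included, was far above the sham range in both. By qPCR, the study found Ccl4 not increased after ON-CR in this genotype at the same age. Why these measurements differ was not tested. Lcn2, the siderophore-binding lipocalin of reactive astrocytes, had 60.5, 38.1 and 50.7 against 611, 647 and 480 (3.53, adjusted p 0.000136), and the complement gene C3 had 180, 164 and 241 against 570, 651 and 1029 (1.91, adjusted p 0.00365). The other genes that rose were Plau (2.43, adjusted p 0.00846), Bcl2a1b (2.14, 0.026), Il1a (2.10, 0.0195), Cxcl10 (1.95, 0.0407), Cd83 (1.16, 0.015) and Vcam1 (0.81, 0.0207), which encode a plasminogen activator, a survival factor of the Bcl-2 family, interleukin-1 alpha, a chemokine, an activation marker of antigen-presenting cells and an adhesion molecule. Bcl2l1, which encodes the survival factor Bcl-xL, fell (-0.57, adjusted p 0.0251), with 9041, 10263 and 10311 in sham and 6760, 6386 and 6778 in ON-CR mice. These calls depended on the setting: of 16 alternatives, Cxcl10 and Bcl2a1b lost theirs in 7, Il1a and Bcl2l1 in 6, Vcam1 in 5 and Cd83 in 4, and Plau lost its call in 3 of 15. Their adjusted p reached 0.26 for Cxcl10, 0.222 for Bcl2a1b, 0.158 for Il1a, 0.229 for Bcl2l1, 0.217 for Vcam1, 0.189 for Cd83 and 0.0763 for Plau, and C3 and Ccl3 each lost the call in 1. Ripk2, the adaptor kinase of the NOD receptors, had a log2 fold change of -0.59 without passing the test (adjusted p 0.292).

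Ccl5, a chemokine of microglia that the study measured by other means, is a further target and was singled out here for that interest. By qPCR, the study found Ccl5 RNA increased after ON-CR in this genotype at the same age. In the libraries here, Ccl5 had 195, 185 and 617 in sham mice and 342, 148 and 1444 in ON-CR mice. The log2 fold change was 0.57 (limma adjusted p 0.761). How these values relate to the qPCR result was not tested. With 1 mouse left out, the log2 fold change of Ccl5 ran from -0.32 to 1.32, so its sign rests on single mice. The highest value in each group was that of 1 mouse, and the groups overlapped. In the target list ON-CR mouse 5 was the lowest of its group for 27 of 39 genes (69.2%), compared with 17 of 35 (48.6%) of the IKK list and 11 of 20 (55%) of the other inhibitors. With 1 mouse at a time left out, between 4 and 14 target genes were called, with 4 without ON-CR mouse 6 or without sham mouse 2, 5 without sham mouse 3, and 7 without sham mouse 1 or without ON-CR mouse 4. Ccl4 and Lcn2 passed in every fit tried.

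**Figure D4:**
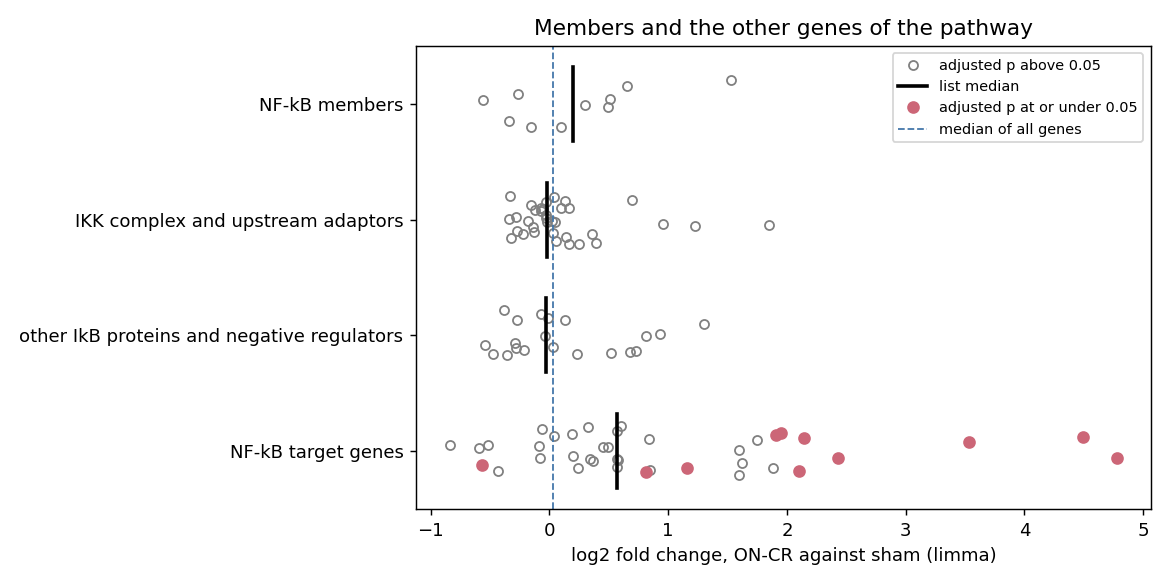
Log2 fold change of ON-CR against sham (horizontal axis) for each gene of the 4 lists (rows, spread vertically for visibility), filled red where the adjusted p was at or under 0.05 and open where it was above; black bars are list medians and the dashed line is the median of all genes, 0.03. Filled points occur in the target list, 10 to the right of 0 and 1 to the left, and in none of the other lists.

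The genes whose pattern over the 6 mice was most like that of Bcl3, the member with the smallest p, were taken from 14428 genes with a mean value of at least 50. Mctp1 had the highest Pearson correlation of log2(value + 1) with it (0.998 over 6 mice), followed by Gm5566 (0.995), Nlk (0.994), Zfp120 (0.993) and Lmo2 (0.991). Mctp1, a calcium-binding membrane protein gene, had 73.2, 39.8 and 78.9 in sham mice and 135, 93.3 and 170 in ON-CR mice (log2 fold change 1.06, limma adjusted p 0.139). Lmo2, a transcriptional partner in blood and endothelial cells, had 73.2, 53.1 and 71.4 against 113, 87 and 115 (0.67, adjusted p 0.217). None of the 5 passed the test. All 5 had groups that did not overlap, which their choice by likeness to Bcl3 made likely. Over all genes, 10.5% were higher after ON-CR without overlap. With 6 libraries and so large a pool, such correlations are a description only.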

How the data were processed

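Total RNA of whole optic nerves from 6 mice was made into libraries with a low-input kit and sequenced on an Illumina instrument. Per the study's methods, reads were mapped and quantified by the authors in Illumina DRAGEN, with mm10 gene models from Ensembl, and median-normalized in Partek Flow (version 10.0). The deposited unit is a normalized signal for each gene, which is the estimated reads divided by a factor per library, and not raw counts. After division by the value of 1 read, 64.3% to 66.6% of nonzero values were whole within 0.01, so no count model was run and the study's DESeq2 test was not repeated.

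Groups came from the sample labels, and each mouse was 1 replicate. Pairs of libraries within a group differed by more than sampling noise (chi-square per degree of freedom 15.1 to 42.6). The limma package (3.58.1, R 4.3.3) was fitted to log2(value + 1) (trend on mean expression, two-sided), with Benjamini-Hochberg adjustment over 25755 genes and a call at an adjusted p at or under 0.05. The fit was checked on simulated data. Fold changes on this scale understate changes of low genes. Gene positions and exon lengths are from GENCODE annotation of GRCm38, and promoter windows from RefSeq (GRCm38.p6), matched by symbol for 7 of 10 genes (windows of chromosome 18 were not used here); 250 bases of promoter are printed. A planned description of protein sequences was not run.

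The genes and the lists of pathway and cell type genes were chosen with earlier results of these data known. Named from the pathway lists were all called genes and the 2 highest and 2 lowest fold changes at a mean value of at least 50; from the cell type lists examples of the genes called or of highest mean; and the 5 genes most correlated with the member of smallest p. Ccl5 was named outside this rule. Of the target list, Ccl20 and Cxcl2 were not among the tested genes. The alternatives were pseudocounts of 0.5 and 2, upper-quartile, trimmed mean and library total scaling, a minimum of 10 in every library or a mean of 1, fits without the trend, robust, or with sample weights, and leaving out each mouse. The minimum mean of 1 kept all 25755 genes and repeated the main fit, so it could change no result.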

Additional observations from a re-analysis of the deposited data

How the results depend on the processing

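None of the 10 NF-kB genes was called under any of the 16 alternatives (Bcl3 was tested in 15, since it did not reach 10 in every library), and the direction of 9 was kept in each. The exception was Nfkb2, at -0.21 without sham mouse 1 and -0.0016 without ON-CR mouse 6, where its main value was 0.10; leaving out single mice gave -0.21 to 0.29. At an unadjusted p under 0.05, 1 to 4 members passed over the alternatives, and their median log2 fold change was 0.04 to 0.33. Over all genes, the fit without the trend called 7 genes, 5 higher and 2 lower, and 2 target genes; leaving out single mice gave 67 to 854 calls, 39 to 489 higher and 28 to 365 lower. Genes called higher numbered 421 under library total scaling, which moved the median of all genes to 0.15 and the share of higher calls from 46.3% to 68.3%, and 388 with sample weights. That share was 71.4% without the trend, 29.7% without ON-CR mouse 4, 57.3% without ON-CR mouse 5, 58.2% without ON-CR mouse 6 and 63.4% without sham mouse 2. Target gene calls were 4 to 14 and their median 0.35 to 0.96 with single mice left out. Under library total scaling the median was 0.11 for the IKK list and 0.10 for the other inhibitors. The latter list had 1 call under that scaling, in the robust fit, with sample weights and with at least 10 in every library (median -0.14, 16 genes). The causes were not tested. No paired analysis was possible because mice carry different numbers in the groups.

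Bcl3 rested on 10 to 66 and Tnfaip3 on 16 to 65 estimated reads per library, with 3 mice a group. How far depth limited their calls was not tested. The intervals of Rela (-0.45 to 0.14) and Nfkb1 (-0.04 to 0.63) were among the narrowest, that of Tnfaip3 (-0.81 to 1.79) the widest. The result for Bcl3 rests most on sham mouse 2 and ON-CR mouse 6, without which its log2 fold change was 1.15 and 1.27.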
